A study of Mus musculus with 32 samples.

Results

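The proximal tubule reabsorption genes are 10 mouse genes, namely Lrp2, Cubn, Slc34a1, Slc5a2, Slc5a12, Slc6a19, Slc7a13, Slc13a3, Slc13a2 and Kap. They were chosen by symbol, and all 10 were found among the 55289 named genes of each deposited table. The study compared male mice deficient in Ftsj1 with wild-type males, all 4 months old. Ftsj1 is an X-linked gene for a tRNA methyltransferase, and how the deficiency was made is not given in the sources used here. Kidney, brain, heart and liver came from the same 3 deficient and 3 wild-type mice, and spleen from 4 deficient and 4 wild-type other mice. The mice were groups of brothers, and the labels state no special treatment. The assay was degradome sequencing, which counts short tags read at the starts of polyadenylated RNAs that carry no cap, so a level here is a number of such ends and not the amount of intact mRNA.

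The proximal tubule takes back most of what the glomerulus filters. Filtered proteins are bound at its brush border by megalin (Lrp2) and cubilin (Cubn) and taken up by endocytosis. Phosphate, glucose, lactate, amino acids and citrate enter by solute carriers driven by the sodium gradient, and the tubule is also the place in the mouse kidney where androgens raise the transcript of Kap.

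Only the authors' comparison per organ was given, with 1 mean over all libraries of an organ, so values of single animals are not shown and the depth of each library is unknown. The means summed to 48536401 in the kidney table, and to between 48733902 and 73405489 in the others. Marker genes went against 2 organ names. The 10 hepatocyte genes made up 23.5% of the sum of the table named for brain, against 0.269% in the table named for liver, and the 7 neuron genes made up 0.151% of the liver-named table, against 0.00155% of the brain-named one. Both are referred to by their deposited names. No header gives the direction of the fold changes, and positive values are read as higher in deficient mice because Ftsj1 itself is negative in all of them. In the authors' deposited kidney table Ftsj1 was at a log2 fold change of -1.56 ± 0.61 (standard error), which did not pass the authors' DESeq2 test (adjusted p = 0.202). Some genes abundant in a studied organ, such as Actc1, the actin of the heart muscle, are listed at 0 in every table, so a low value here need not mean a rare transcript.

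RefSeq promoter windows of GRCm38.p6, each running from 250 bases before to 50 bases after a transcript start, were found for 7 of the 10 genes. They are shown for the genes whose levels differ most in pattern below: Slc34a1 and Kap as genes found almost only in kidney, the dicarboxylate transporters Slc13a2 and Slc13a3, which are found elsewhere too, and Cubn, which was no higher in kidney than in another table. The windows lie at chr13:55399398-55399697, plus strand (Slc34a1), chr6:133853618-133853917, minus strand (Kap), chr11:78422185-78422484, minus strand (Slc13a2), chr2:165473148-165473447, minus strand (Slc13a3) and chr2:13491827-13492126, minus strand (Cubn). Each is written 5' to 3' on the strand of its gene, with matches in capitals to CAAAGTC (HNF4) or TATAAA, searched on both strands.
Slc34a1: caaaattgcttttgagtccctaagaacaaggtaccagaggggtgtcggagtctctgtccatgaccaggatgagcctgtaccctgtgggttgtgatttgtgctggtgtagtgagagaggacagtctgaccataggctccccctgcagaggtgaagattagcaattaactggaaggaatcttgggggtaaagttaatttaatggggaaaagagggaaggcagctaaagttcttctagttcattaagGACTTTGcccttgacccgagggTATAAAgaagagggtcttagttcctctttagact
Kap: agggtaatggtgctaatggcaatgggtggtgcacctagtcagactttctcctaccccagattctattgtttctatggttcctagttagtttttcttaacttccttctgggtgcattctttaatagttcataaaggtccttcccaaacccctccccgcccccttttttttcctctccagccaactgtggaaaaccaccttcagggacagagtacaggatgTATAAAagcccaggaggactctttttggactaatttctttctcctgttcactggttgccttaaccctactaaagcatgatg
Slc13a2: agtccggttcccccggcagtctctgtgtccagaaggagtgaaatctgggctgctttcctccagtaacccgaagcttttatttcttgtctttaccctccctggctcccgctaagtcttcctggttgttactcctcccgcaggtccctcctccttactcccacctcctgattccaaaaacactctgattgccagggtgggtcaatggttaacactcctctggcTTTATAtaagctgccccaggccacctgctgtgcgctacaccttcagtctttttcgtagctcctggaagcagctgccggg
Slc13a3: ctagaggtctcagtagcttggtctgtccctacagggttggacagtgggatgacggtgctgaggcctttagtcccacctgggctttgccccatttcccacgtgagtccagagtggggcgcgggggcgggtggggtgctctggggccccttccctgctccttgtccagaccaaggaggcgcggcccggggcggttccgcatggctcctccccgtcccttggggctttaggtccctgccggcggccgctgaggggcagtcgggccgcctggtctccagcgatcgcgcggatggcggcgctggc
Cubn: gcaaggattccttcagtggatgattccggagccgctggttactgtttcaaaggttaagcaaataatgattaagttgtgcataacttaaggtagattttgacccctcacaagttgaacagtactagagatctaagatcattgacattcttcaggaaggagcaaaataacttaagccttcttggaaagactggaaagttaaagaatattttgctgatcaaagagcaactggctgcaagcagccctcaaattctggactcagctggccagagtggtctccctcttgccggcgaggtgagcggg
The Slc34a1 window held a match to the HNF4 letters on the other strand, running from 6 bases before the start onto the start itself. It also held TATAAA from base 17 of the transcript. Of all 32851 promoter windows, 4.44% held CAAAGTC and 13.6% held TATAAA, against 1 and 3 of the 7 windows of these genes. TATAAA was 31 bases before the start in Kap and, on the other strand, 29 bases before it in Slc13a2. The window of Slc13a3 was 69.3% G and C with 22 CG pairs, against 54.3% and 8 in Slc13a2, and 89.5% of all windows were lower in G and C than that of Slc13a3. The windows of Lrp2, Slc6a19, Slc13a3 and Cubn held no match to these letters, which says nothing of the factors themselves.

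None of the 10 genes passed the genotype comparison in kidney at a false discovery rate of 5% by the authors' DESeq2 test. Slc13a3 alone had an unadjusted p under 0.05 and a 95% interval that did not reach 0, and 6 genes were positive and 4 negative with a median log2 fold change of 0.11. Of all 19630 genes tested there, 2.07% passed, 11.9% had an unadjusted p under 0.05, and the median was -0.01. The width of the interval differed by gene.

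Megalin is the large endocytic receptor of the brush border. Lrp2 had a mean normalized count of 188969 over the 6 kidney libraries in the authors' deposited table, with a log2 fold change of 0.34 ± 0.25 (adjusted p = 0.676). That is a fold of 1.26 with a 95% interval from 0.903 to 1.77 for deficient over wild-type kidneys. Cubilin, the receptor that binds intrinsic factor and albumin and relies on megalin for uptake, was at 0.43 ± 0.43 (adjusted p = 0.807) on a mean of 208 in the authors' deposited kidney table. Amn, which encodes the partner that carries cubilin to the membrane, was at -0.05 ± 0.24 on a mean of 38842 in the authors' deposited kidney table.

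Slc34a1 encodes the main phosphate transporter of the tubule. It was at 0.10 ± 0.25 (adjusted p = 0.956) on a mean of 32569 in the authors' deposited kidney table, and the 95% interval of the log2 value ran from -0.39 to 0.58. Slc5a2, the glucose transporter that gliflozin drugs block, was at 0.28 ± 0.21 (adjusted p = 0.674) on a mean of 13803 in the authors' deposited kidney table. Its fold of 1.22 had a 95% interval from 0.918 to 1.61. Slc5a12, a low-affinity lactate transporter, had the highest estimate of the group, 0.54 ± 0.52 (adjusted p = 0.792), on a mean of 11330 in the authors' deposited kidney table. Its standard error was larger than that of 98.5% of the 1388 tested genes with a mean within 2-fold of its own. The 95% interval of its fold of 1.46 thus reached from 0.720 to 2.96.

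Slc6a19, the transporter of neutral amino acids, was at -0.10 ± 0.29 (adjusted p = 0.965) on a mean of 14425 in the authors' deposited kidney table. Its relative Slc6a18, another amino acid transporter of the tubule, was at -0.25 ± 0.30 on a mean of 49665 in the authors' deposited kidney table. Slc7a13, a transporter of acidic amino acids and cystine in the last segment of the tubule, was at 0.12 ± 0.36 (adjusted p = 0.967) on a mean of 1144 in the authors' deposited kidney table.

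The dicarboxylate transporters had the most and the least certain values. Slc13a3, on the basolateral side, was at -0.50 ± 0.19 on a mean of 125643 in the authors' deposited kidney table, the smallest standard error of the 10 genes. Its fold of 0.709 had a 95% interval from 0.547 to 0.918, an unadjusted p of 0.00923 and an adjusted p = 0.183 by DESeq2 over the whole table, so it did not pass. With 3 libraries per genotype, its mean and fold change imply about 104218 in deficient and 147067 in wild-type kidneys, taking the fold change as the ratio of the group means. Slc13a2, which takes up citrate at the brush border, was at -0.04 ± 1.31 (adjusted p = 0.998) on a mean of 542 in the authors' deposited kidney table. That standard error exceeded those of 98.8% of the 4423 tested genes within 2-fold of its mean, whose median was 0.61. Its fold of 0.974 is thus known only to lie between 0.165 and 5.75. An antisense gene, Slc13a2os, overlaps Slc13a2 and had a mean of 8.41 in the authors' deposited kidney table, and whether the counting used strand is not given in the sources used here.

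Kap, the androgen-regulated transcript, was at -0.44 ± 0.31 (adjusted p = 0.651) on a mean of 48694 in the authors' deposited kidney table. Its fold of 0.737 had an interval from 0.483 to 1.12. Other androgen-responsive kidney genes did not share a direction, with 5 of 12 positive, a median of -0.03 and none past the threshold by DESeq2, while 3 had an unadjusted p under 0.05. Those 3 were Slco1a1, an organic anion transporter, at -1.18 ± 0.48 (adjusted p = 0.231), Cyp2j13, a cytochrome P450, at -0.48 ± 0.23 (adjusted p = 0.378), and Cyp7b1, which hydroxylates oxysterols, with 0.52 ± 0.23 (adjusted p = 0.277) in the authors' deposited kidney table. The steroid dehydrogenase gene Akr1c21, the most abundant of the list, was at -0.05 ± 0.24 in the authors' deposited kidney table.

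**Figure D1:**
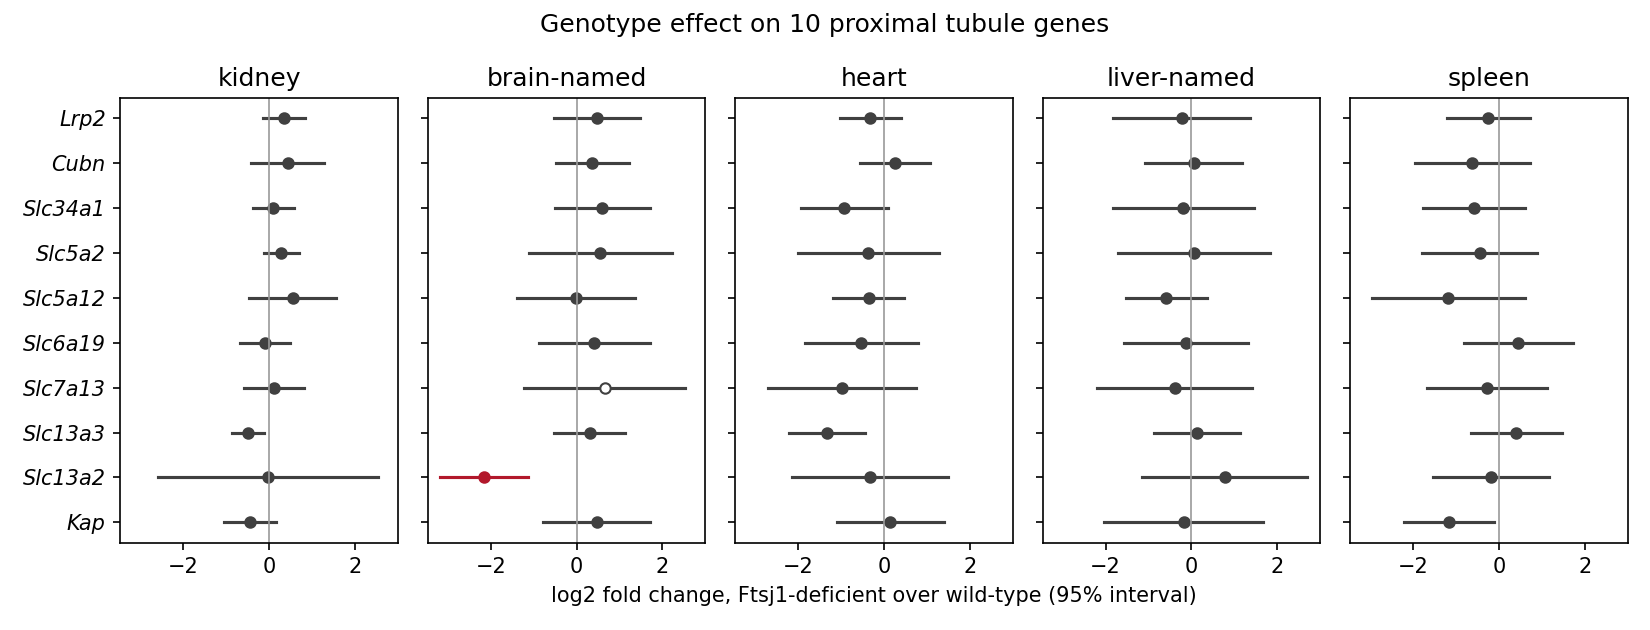
Log2 fold change of each of the 10 genes (points) with its 95% interval (lines), Ftsj1-deficient over wild-type, in each of the 5 deposited tables, from the authors' estimates and standard errors. Red marks an adjusted p under 0.05, seen for Slc13a2 in the brain-named table at -2.16, and the open point marks Slc7a13 in the brain-named table, which has no adjusted p.

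**Figure D2:**
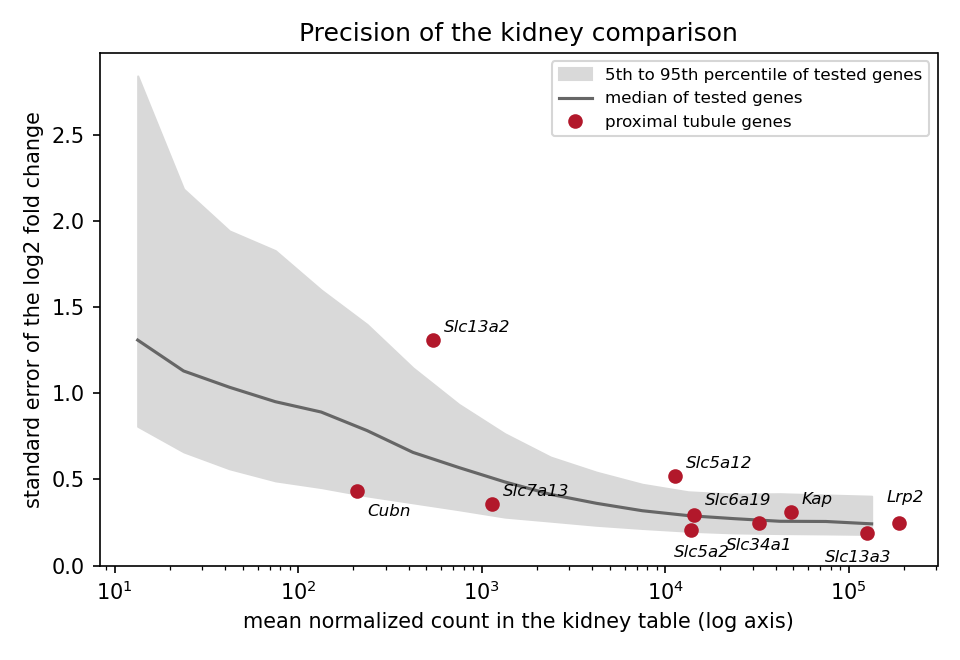
Standard error of the log2 fold change against the mean normalized count (log axis) in the kidney table, with the 10 genes as points over the median (line) and the 5th to 95th percentile (grey) of tested genes in bins of mean. Slc13a2 at 1.31 and Slc5a12 at 0.52 lie above the grey span.

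Across the organ tables, 9 of the 10 genes had their highest level in kidney, given in ppm, the parts per 1000000 of the table's summed means, because the tables were normalized separately. The order of levels is a description with no test. Lrp2 was at 3893 ppm in kidney, against 13.2 in spleen, 12.8 in liver-named, 12.5 in heart and 7.75 in the brain-named table. Kap was at 1003 ppm in kidney, against 3.11 in spleen, the next highest table, and 1.18 in heart, the lowest. Slc34a1 was at 671 ppm in kidney and at most 1.98 elsewhere. Slc5a2 was at 284 and at most 0.818, Slc6a19 at 297 and at most 1.40, and Slc5a12 at 233 and at most 1.77. Slc7a13 was at 23.6 ppm in kidney and at most 0.435 elsewhere, in spleen.

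For these 7 genes the kidney level was between 54.2 and 348 times that of the next table, and between 95.6% and 99.3% of the summed level over the 5 tables lay in kidney. Outside kidney they stood at a low share of their kidney level. The median share over the 7 genes was 0.339% for spleen, 0.329% for the liver-named table, 0.207% for heart and 0.190% for the brain-named table, and single values ran from 0.0970% for Slc5a2 in heart to 1.85% for Slc7a13 in spleen. Some of the means outside kidney were few tags, such as 32.9 for Slc5a2 in the brain-named and 13.9 in the heart table. Those of Lrp2 were higher, from 569 in the brain-named to 872 in the liver-named table. Another gene, Rusf1, overlaps Slc5a2, and reads of overlapping genes may not be told apart. Rusf1 had means of 1471 in the brain-named, 969 in the liver-named and 147 in the heart table, and 726 in kidney. The order of the 4 other tables is not separated by any error given in the files. Where these tags came from was not tested.

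The dicarboxylate transporters departed from that pattern in different tables. Slc13a3 was at 2589 ppm in kidney and at 157 in the liver-named table, which held the neuron markers, or 6.06% of its kidney level. It was at 35.8 ppm in the brain-named table, which held the hepatocyte markers, at 15.4 in spleen and at 6.03 in heart. Which cells these tags came from was not tested. Slc13a2 was at 11.2 ppm in kidney and at 1.27 in the brain-named table, or 11.4% of its kidney level, against 0.277 in spleen, 0.185 in heart and 0.174 in the liver-named table.

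Cubn was the exception to the kidney pattern. It was at 4.29 ppm in kidney, below the 4.66 of the liver-named table, and at 2.27 in heart, 2.01 in spleen and 1.03 in the brain-named table. Its kidney and liver-named levels differed by 1.09-fold, with no error of a level in the files to set that against, and the order held under other scalings, where kidney was at 0.992 and 0.968 of the liver-named level. Amn, whose product works with cubilin, was 13.0-fold higher in kidney than in the next table, and Lrp2 295-fold. The overlapping noncoding gene Gm13270 had a mean of 0.284 in kidney and 20.6 in the liver-named organ, where Cubn had 208 and 318, all from the authors' deposited tables, and reads of overlapping genes may not be told apart. Degradome tags of Cubn therefore do not mark kidney in these tables.

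**Figure D3:**
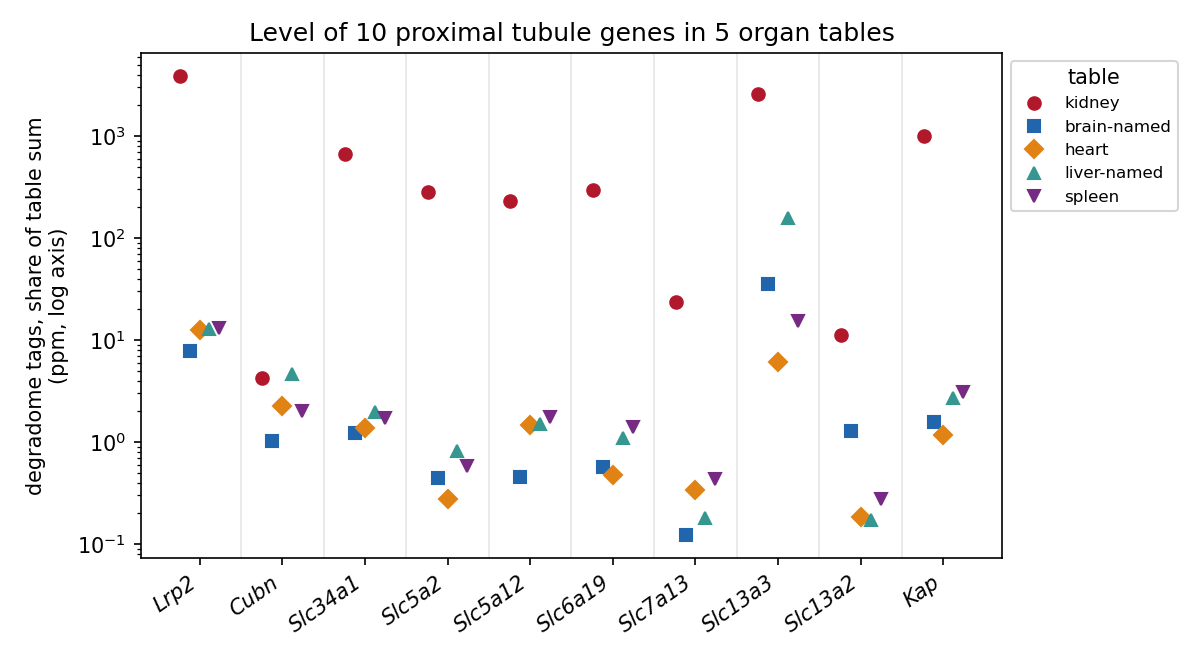
Level of each of the 10 genes (horizontal axis) in ppm of the table's summed means (vertical log axis) in the 5 tables, each point being the authors' mean over all libraries of that organ. Kidney (red circles) is highest for 9 genes, by 54.2 to 348 times for 7 of them, while Cubn is at 4.29 in kidney and 4.66 in the liver-named table.

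Outside kidney 1 of the 10 genes passed in 1 table. Slc13a2 fell in the brain-named table, at -2.16 ± 0.52 in the authors' deposited table (DESeq2 adjusted p = 0.0206), a fold of 0.224 with a 95% interval from 0.111 to 0.454. Its mean of 93.2 there implies about 34.1 normalized counts in deficient and 152 in wild-type animals. Of 17619 genes tested there, 0.414% passed, and 0.0795% passed as falls. When every statistic of the table was centred and divided by their robust spread, the call was lost (adjusted p = 0.161).

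The other 8 tested genes of the group did not pass in the brain-named table. They lay between -0.02 and 0.60, with standard errors from 0.42 to 0.85 and adjusted p from 0.818 upward by DESeq2. Of these, 0 had an unadjusted p under 0.05, against 10.8% of the table. With Slc13a2 counted, 7 of 9 tested genes were positive with a median of 0.41, against 0.04 over all tested genes. Slc13a3, the closest relative of Slc13a2 in the group, was at 0.31 ± 0.42 (adjusted p = 0.891) in the authors' deposited brain-named table. Some markers of other cells did pass in the same comparison. All 6 tested acinar genes of 8 were positive with a median of 3.95, and Amy2a5, a pancreatic amylase, rose by 2.63 ± 0.69 (DESeq2 adjusted p = 0.0425) in the authors' deposited brain-named table. The lowest acinar mean there was 3390, so the acinar genes without an adjusted p were not low. The files hold no values per library, and the part of single libraries in the acinar rise was not tested. All 4 tested adrenal genes of 9 were negative with a median of -0.63, and Cyp21a1, the steroid 21-hydroxylase, fell, at -2.37 ± 0.48 (DESeq2 adjusted p = 0.00216) in the authors' deposited brain-named table. Hepatocyte genes were positive in 8 of 9 tested, with a median of 0.60. Acinar genes made up 0.319% of the sum of that table and adrenal genes 0.000789%, and their part in the value of Slc13a2 was not tested. In such whole-organ samples fewer cells of a type and less RNA per cell cannot be told apart.

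In the heart, liver-named and spleen tables none of the 10 genes passed by DESeq2, where 1.19%, 0.203% and 0.217% of all tested genes did. Those with an unadjusted p under 0.05 numbered 1, 0 and 1, against shares of 10.6%, 10.4% and 5.97% over all tested genes. The heart one was Slc13a3, at -1.33 ± 0.45 (unadjusted p = 0.00296, adjusted p = 0.131) on a mean of 304 in the authors' deposited table, and the spleen one was Kap, at -1.16 ± 0.53 (unadjusted p = 0.0302, adjusted p = 0.727) on a mean of 152. In heart 8 of 10 genes were negative with a median of -0.36, and in spleen 8 of 10 with a median of -0.36, while the medians of all tested genes there were 0.01 and -0.01. The 117 other proximal tubule genes leaned the same way, with 65 of 98 tested negative in heart and 72 of 106 in spleen. Their medians were -0.33 and -0.30, and by DESeq2 1 of them passed in heart and 0 in spleen. Hepatocyte genes were negative in 8 of 8 in heart with a median of -0.81 and 9 of 9 in spleen with a median of -0.41. Acinar genes were negative in 8 of 8 and 7 of 8, with medians of -0.48 and -0.33. None of the hepatocyte and acinar genes passed by DESeq2, with 2 hepatocyte genes in heart at an unadjusted p under 0.05. Acinar genes made up 14.5% of the sum of the spleen table and 0.0196% of that of the heart table. Neuron genes were negative in 6 of 6 in heart but positive in 5 of 6 in spleen, with medians of -0.35 and 0.17. Thick limb genes were negative in 6 of 6 in heart and 4 of 7 in spleen, with medians of -0.64 and -0.34. Of these, 1 passed as a fall by DESeq2, in heart. Distal and collecting duct genes were negative in 4 of 8 and 10 of 11, with medians of -0.03 and -0.46. Podocyte genes were negative in 3 of 7 and 4 of 7, with medians of 0.13 and -0.06. The part of these cells in the values of the 10 genes was not tested. For the liver-named organ 4 of 10 were positive, with a median of -0.15.

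Whether the genotype effect differed between kidney and another organ was tested gene by gene, by a z from both standard errors adjusted over all genes with a p in both tables. In none of the 40 comparisons did a member pass, and in none was the unadjusted p under 0.05. Over all genes, 0.653% passed for kidney minus brain-named, 0.299% for kidney minus heart, 0.38% for kidney minus liver-named and 0.185% for kidney minus spleen, and at an unadjusted p under 0.05 the shares were 8.32%, 6.26%, 7.04% and 5.28%. Slc13a2 differed by 2.12 between kidney and the brain-named table, with a 95% interval from -0.64 to 4.88 (adjusted p = 0.813), so a difference between the organs was not shown. Slc13a3 was lower by its estimate in kidney than in the brain-named table, at -0.81 with an interval from -1.72 to 0.10 (adjusted p = 0.700), and higher than in heart, at 0.84 with an interval from -0.12 to 1.79 (adjusted p = 0.932). Standard errors of the 40 differences ran from 0.44 to 1.64, and all 40 intervals reached past a log2 difference of 1 in at least 1 direction, so the comparison leaves room for a 2-fold difference in each. The test treats the tables as independent, although 4 organs came from the same mice.

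The wider set of proximal tubule genes gave no call in kidney either. Of 117 other genes in 7 lists, 110 were tested in the kidney table, 64 were positive and 46 negative, the median was 0.04 and none passed by DESeq2, with 10 at an unadjusted p under 0.05. All 16 brush border genes were highest in kidney, and 13 of 16 were positive there, with a median of 0.19, while 0 had an unadjusted p under 0.05. Among them Ggt1, a peptidase of glutathione, was at -0.24 ± 0.30, Pdzk1, a scaffold for transporters, at 0.20 ± 0.26 and Mep1a, a metalloprotease, at 0.55 ± 0.32 in the authors' deposited kidney table. Of 36 other transporters 2 had a mean of 0 in kidney, and the median ratio of the kidney level to the highest other table was 10.5. Among them 20 of 34 tested were positive in kidney, with a median of 0.08. By the authors' DESeq2 test 2 had an unadjusted p under 0.05, Slc6a20a at 0.80 ± 0.40 and Slc16a9 at -0.57 ± 0.23 in the authors' deposited kidney table. Slc22a6, the exchanger of organic anions, was at -0.36 ± 0.22 and Slc27a2, a fatty acid transporter, at -0.02 ± 0.28 in the authors' deposited kidney table. The other lists were less restricted to kidney. Highest there were 7 of 12 endocytic partners, 7 of 12 androgen-responsive genes and 5 of 9 transcription factors. The median ratio of the kidney level to the highest other table was 3.39 for metabolic genes and 0.105 for injury genes.

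Endocytic partners of megalin and cubilin had a median of -0.05, with 4 of 12 positive. Lrpap1, the chaperone of megalin, was at 0.02 ± 0.22 and Lgmn, a lysosomal protease, at 0.10 ± 0.19 in the authors' deposited kidney table. Metabolic genes of the tubule had a median of 0.10 with 12 of 21 tested positive. Cyp2e1, a cytochrome P450, was at -0.08 ± 0.28, Miox, which breaks down inositol, at -0.10 ± 0.27 and Fbp1, of gluconeogenesis, at 0.00 ± 0.26 in the authors' deposited kidney table. None of the 21 passed by DESeq2, while 4 had an unadjusted p under 0.05. These were Gatm, of creatine synthesis, at 0.73 ± 0.25 (adjusted p = 0.112), Gsta2, a glutathione transferase, at 0.48 ± 0.25 (adjusted p = 0.411), Cyp4b1, a cytochrome P450, at -0.50 ± 0.23 (adjusted p = 0.311) and Keg1 at -1.68 ± 0.63 (adjusted p = 0.167) in the authors' deposited kidney table. Injury genes were low, with a median mean of 141 normalized counts in kidney, and 5 of 8 tested were positive with a median of 0.13. The most abundant, Clu, Spp1 and Cdkn1a, were at -0.17 ± 0.31, 0.23 ± 0.25 and 0.04 ± 0.65 in the authors' deposited kidney table. Farther from 0 lay genes of lower mean, namely Sox9, a transcription factor, at -2.46 ± 0.78 (unadjusted p = 0.00153, adjusted p = 0.0638), Havcr1, the kidney injury molecule, at 1.45 ± 0.79 (adjusted p = 0.472) and Vcam1, an adhesion molecule, at 1.76 ± 0.98 (adjusted p = 0.491) in the authors' deposited kidney table. None of the 8 passed by DESeq2, and Sox9 alone had an unadjusted p under 0.05.

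Transcription factors of the tubule had a median of 0.24 in kidney, with 5 of 8 tested positive. Hnf4a, a nuclear receptor, was at -0.07 ± 0.42 (adjusted p = 0.986) on a mean of 4576 in the authors' deposited kidney table.

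Genes of other nephron segments likewise gave no call in kidney. Podocyte genes had a median of 0.20 with 6 of 7 positive, thick limb genes 0.33 with 6 of 7 positive, and distal and collecting duct genes 0.02 with 6 of 12 positive. By DESeq2 0 of these passed, with 0, 0 and 1 at an unadjusted p under 0.05. Adrenal genes, at 0.00621% of the sum of the kidney table, were negative in 4 of 4 tested of 9, with a median of -3.13. Star, the cholesterol carrier, fell, at -4.65 ± 1.03 (DESeq2 adjusted p = 0.00135) in the authors' deposited kidney table. The untested adrenal genes were negative too, down to -9.24 ± 1.98 for Cyp21a1, but were given no p there. The mean of Cyp21a1 was 576, against 274 for Star, so its missing p did not go with a lower mean. The files hold no values per library, and the part of single libraries in these falls was not tested. The part of adrenal genes in the estimates of the 10 genes was not tested.

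**Figure D4:**
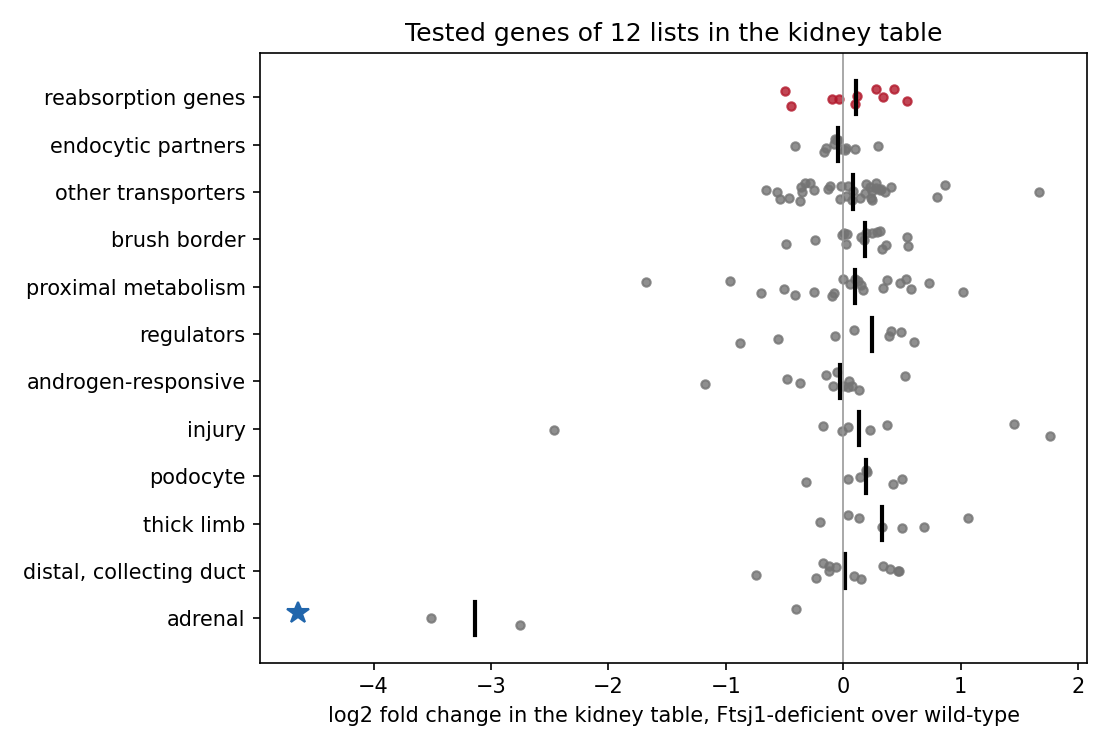
Log2 fold change in the kidney table, Ftsj1-deficient over wild-type, of each tested gene in 12 lists (points, spread vertically at random for sight), with the list median as a black bar. The reabsorption genes (red) lie between -0.50 and 0.54 around a median of 0.11, and the blue star is Star, which passed at an adjusted p under 0.05.

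The genes most like the group in their levels were sought among 6189 genes with a kidney mean of at least 1000, as the smallest distance to the group's mean profile of log2(ppm + 0.1) over the 5 tables. They were Glb1l2, a relative of beta-galactosidase, at a distance of 1.20, Cyp2j13, a cytochrome P450, at 1.44, the gene model 1700016C15Rik at 1.54, Kcnj1, a potassium channel of the thick limb and collecting duct, at 1.56 and Slc5a1, a glucose transporter, at 1.59. The 10 genes themselves lay between 1.55 for Slc5a12 and 9.18 for Slc13a3 from their own mean, so the mean profile describes some of them poorly.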

How the data were processed

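Degradome libraries of 5 organs, 32 from 14 mice, were grouped by organ and genotype from the sample titles. Per the submitters' processing notes the authors used GRCm39, featureCounts, Subread 2.0.3 and DESeq2; aligner, strand setting and model are not given in the sources used here. Each deposited table holds a mean normalized count, a signal that is the authors' average of all libraries from an organ. Deposited fold changes and standard errors are log2 values, and dividing them gives the deposited Wald score. Each deposited p-value, raw or adjusted, comes from the authors, and a gene with an adjusted p is called tested. A row without a gene name was left out of each file.

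No test per gene was run anew. Intervals are 95% and normal. Levels across tables are shares of the table sum. Differences between tables used a z from both standard errors with Benjamini-Hochberg adjustment over all genes, tested on simulated data first. The tools were matplotlib 3.10.9, scipy 1.17.1, pandas 2.3.3 and numpy 2.4.6 under Python 3.11.15. The 10 genes and the lists were chosen with earlier results of these data known. Named genes were the 10 members, Ftsj1, genes of the proximal lists past a false discovery rate of 5% in any table or among the 3 highest kidney means of a list, markers past it in the kidney or brain-named table, and the 5 nearest profiles. Some genes of this rule and a promoter motif are not reported here. Actc1, Slc13a2os, Gm13270, Rusf1, Slco1a1, Slc6a20a, Slc16a9, Gatm, Gsta2, Cyp4b1, Keg1, Sox9, Havcr1 and Vcam1 are outside this rule and were chosen once their values had been seen. P-values measure the spread between animals of few litters.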

Additional observations from a re-analysis of the deposited data

How the results depend on the processing

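Of 288 calls of single genes recomputed under other thresholds, adjustments, filters and a rescaled statistic, 286 stayed on their side of the threshold. They came from 49 pairs of gene and table, of which only 1 was past the threshold at the main setting. A rate of 1% and a required log2 change of at least 1 can only remove calls. For the other pairs those 2 outcomes were thus fixed in advance, and 286 of 288 is no measure of robustness. The exceptions were both Slc13a2 in the brain-named table. There the count of genes passing was 0 at a false discovery rate of 1% and 0 with the statistic centred and divided by its robust spread, against 1. Its adjusted p ranged from 0.0206 to 0.161 over these settings, with 0.0402 when adjusted over every gene with a p. Over all genes, rescaling left 169 calls in place of 407 for kidney, 8 in place of 73 for brain-named, 53 in place of 236 for heart and 2 in place of 45 for liver-named, and for spleen 73 in place of 50; at a false discovery rate of 1% the counts were 184, 14, 90, 8 and 21, at 10% 155 for brain-named, 381 for heart, 125 for liver-named and 78 for spleen, and adjusted over every gene with a p 38 for brain-named and 30 for liver-named. Centring on the most abundant 10% of genes moved all values by 0.15 for heart, 0.23 for liver-named and 0.20 for spleen, with 1, 1 and 2 of 10 members then positive and medians of -0.51, -0.38 and -0.57. The count of 9 genes highest in kidney held under both other scalings, although the 7 kidney-restricted genes then stood 36.2 to 326 and 36.5 to 274 times above the next table, and Slc13a2 5.11 and 3.81 times in place of 8.81. Differences between tables gave 0 member calls also at 10% and over genes with a mean of at least 20 in both. No paired analysis was possible because the tables hold no values per library, and leaving out each replicate was not run for the same reason. Depth per library is unknown, and the standard errors set the limit, up to 1.31 for Slc13a2 in kidney.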
